A study of Homo sapiens with 27 samples.

Results

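The microRNAs (miRNAs) of the imprinted DLK1-DIO3 domain at 14q32 were followed through 9 groups of small RNA libraries in which the 3' exonuclease USB1, the poly(A) nuclease PARN or the poly(A) polymerase PAPD5 was altered. Members were taken by name: every arm of 49 miRNA numbers assigned to the domain that appeared in any of the 9 count tables, which gave 76 members among 2276 mature miRNAs. 45 of the 49 numbers were listed, and no arm of miR-496, miR-544a, miR-668 or miR-1193 was. The rule used names, not levels.

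The libraries, 3 in each group, came from H1, a human embryonic stem cell (hESC) line, and from K562, a line derived from a chronic myelogenous leukaemia (CML). The 5 hESC groups, 15 libraries in all, were wild type (WT), a USB1 mutant (USB1 mut), the mutant carrying a doxycycline-inducible USB1 transgene (iUSB1-WT) without Dox, the same line with Dox, and the mutant in which PAPD5 was targeted by a short hairpin RNA (shPAPD5). The 4 K562 groups, 12 libraries, were control cells of WT genotype, USB1 knockout (USB1 KO), control cells with a hairpin against PARN (shPARN) and USB1 KO with shPARN. Per the study's methods the transgene and the PAPD5 hairpin sat at the AAVS1 locus, hESCs grew on Matrigel or on mouse feeder cells, and K562 knockout lines were expanded from single cells after puromycin selection. Whether USB1 KO and USB1 KO shPARN derive from the same clone is not given in the sources used here, and no group was labelled with a non-targeting hairpin, so an effect of PARN or PAPD5 loss cannot be told apart from an effect of introducing a hairpin. Small RNA libraries do not measure the mRNA of USB1, PARN or PAPD5, so the knockout and knockdowns were not checked in these data. The study itself reports an immunoblot for loss of USB1 in the knockout K562 cells. It also reports PAPD5 mRNA in the shPAPD5 hESCs and USB1 mRNA and protein in the iUSB1 line with Dox. No check of PARN is given in the sources used here.

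The DLK1-DIO3 domain is expressed by parent of origin. The paternal chromosome expresses the protein-coding genes DLK1, RTL1 and DIO3, and the maternal chromosome expresses long non-coding RNAs (MEG3, MEG8 and MEG9) together with a large miRNA cluster processed from these transcripts. The miRNAs are known from placenta, embryo and brain, and the state of the domain in pluripotent cell lines is known to vary between lines and to be tied to methylation of its control regions. USB1 and PARN are both known to trim RNA 3' ends, and PAPD5 adds adenosines to them.

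The 48 hairpins that encode the members lie on the plus strand of chromosome 14 at chr14:100852390-101066801 (GRCh38.p14, RefSeq), a stretch of 214.412 kb. They fall into a pair of segments. The upstream segment, chr14:100852390-100911213, has 10 hairpins (17 members) from MIR770 to MIR370. The miR-379/miR-656 segment, chr14:101022066-101066801, has 38 hairpins (59 members), and 110.852 kb with no member separates it from the first. All 10 upstream hairpins lie within the non-coding gene MIR493HG on the same strand, MIR127 at an exon and the others in introns. It is the only host given for MIR493, MIR337 and MIR665. MIR770 also overlaps an exon of MEG3. MIR431, MIR433, MIR127, MIR432 and MIR136 lie antisense to an exon of RTL1. MIR370 and the hairpins from MIR379 to MIR495 lie in introns of MEG8, and those from MIR1185-1 to MIR656 lie within MEG9. For MIR376C, MIR376A2, MIR654, MIR376B, MIR376A1 and MIR300 the annotation gave no host gene. Both arms were listed for 30 of the numbers.

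The mature sequences of the members on which the results turn are given 5' to 3' from RefSeq, which matched 76 of 76 members, with the seed (bases 2 to 8, the part that pairs with most targets) in capitals. The most abundant members of the upstream segment came from MIR493, MIR127 and MIR370, whose mature 3p arms lie at chr14:100869116-100869137, chr14:100883035-100883056 and chr14:100911186-100911207, and miR-665 is shown because no comparison called it.
hsa-miR-493-5p: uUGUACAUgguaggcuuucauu
hsa-miR-493-3p: uGAAGGUCuacugugugccagg
hsa-miR-665: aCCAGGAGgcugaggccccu
hsa-miR-127-3p: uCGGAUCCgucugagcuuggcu
hsa-miR-370-3p: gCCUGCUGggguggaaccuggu

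Those of the miR-379/miR-656 segment include miR-379-5p (chr14:101022071-101022091), miR-654-3p (chr14:101040269-101040290), miR-381-3p (chr14:101045968-101045989), miR-134-5p (chr14:101054694-101054715) and miR-409-3p (chr14:101065346-101065367). miR-300 is set beside miR-381-3p because they share a seed, and miR-323b-3p beside miR-323a-3p because they differ at 2 of 21 aligned bases.
hsa-miR-379-5p: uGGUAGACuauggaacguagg
hsa-miR-323a-3p: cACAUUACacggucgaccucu
hsa-miR-323b-3p: cCCAAUACacggucgaccucuu
hsa-miR-758-3p: uUUGUGACcugguccacuaacc
hsa-miR-654-3p: uAUGUCUGcugaccaucaccuu
hsa-miR-300: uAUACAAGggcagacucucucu
hsa-miR-381-3p: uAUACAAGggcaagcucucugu
hsa-miR-134-5p: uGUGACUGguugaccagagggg
hsa-miR-409-3p: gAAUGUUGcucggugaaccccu

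The cluster is diverse in sequence. The 76 members carried 68 different seeds, and 8 seeds were shared, each by 2 members. miR-381-3p and miR-300 were such a pair, as were miR-379-3p and miR-411-3p. 10 pairs differed at 3 or fewer bases, among them miR-1185-1-3p and miR-1185-2-3p (1 base) and miR-376a-3p and miR-376c-3p (2 bases), so reads with sequencing errors could be counted for the wrong partner and these members' levels are less certain. miR-300 itself was listed only in USB1 KO, with 1, 0 and 0 counts, against 119, 185 and 41 for miR-381-3p.

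The depth, as the total of miRNA counts, ran from 12258450 to 35734485 in the hESC libraries and from 1530929 (USB1 KO library 3) to 13183152 in the K562 libraries. A table listed a member only where its first library had at least 1 count, so a member missing from a table had 0 counts in library 1 and unknown counts in libraries 2 and 3. The listed pluripotency miRNAs of the miR-302 and miR-371 clusters summed to 178501 to 397742 CPM (here counts scaled to the total of all miRNA counts) in hESCs. The top of that range was USB1 mut library 1, against 235724 and 230763 in libraries 2 and 3 of its group. In K562 control libraries 1 and 2 these miRNAs summed to 782 and 829, against 8.71 in control library 3. That difference lay in the miR-302 arms, such as miR-302b-3p with 4323, 3005 and 1 counts in the control libraries. The miR-371 cluster did not share it, with 129, 82 and 73 counts of miR-372-3p. Every other K562 library had at most 19.2 from listed markers. Those tables listed 3 or 4 of the 8 markers, and control shPARN listed no miR-302 arm. Counts of the unlisted markers in libraries 2 and 3 were unknown. Blood miRNAs (miR-451a, miR-144, miR-486-5p, miR-223-3p and miR-142) summed to 6608 to 11620 CPM in K562 and 93.7 to 341 in hESCs. Of the 14 fibroblast markers, those other than miR-21 summed to 1598 to 1920 CPM in control and 745 to 805 in control shPARN. They summed to 1478, 1793 and 6264 in the USB1 KO libraries and to 12886, 1482 and 629 in the USB1 KO shPARN libraries. In hESC libraries they summed to 238 to 706. With miR-21 included, the listed markers summed to 128412 to 157552 CPM in control and 130410 to 139523 in USB1 KO. That sum was higher with shPARN, at 242284 to 321917 in control shPARN and 175092 to 270951 in USB1 KO shPARN. In hESCs it was 19809 to 29017. The closest libraries were USB1 KO 1 and 2, which still differed by more than sampling noise, with a chi-squared of 11.6 per degree of freedom. The furthest apart within a group were USB1 mut libraries 1 and 2, at 1980. WT hESC library 1 stood apart from libraries 2 and 3 (533 and 559), with 113923 counts of miR-372-3p against 6393 and 5514. Separate cultures within a group are not stated in the labels, and the p-values reflect only how far these libraries spread, which may in part be technical.

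The cluster was a small share of each library and was far more abundant in K562 than in hESCs. Members held 0.00225 to 0.00545% of miRNA counts in hESC libraries and 0.00606 to 0.0693% in K562 libraries. In CPM scaled by the trimmed mean of M-values (TMM-scaled CPM, the scale of all members' levels), the summed level was 33.9, 25.6 and 24.1 in the WT hESC libraries and 575, 620 and 514.7 in the K562 control libraries. The means of 27.9 ± 5.23 and 570 ± 52.7 (SD, n = 3) differed by a ratio of 20.4, and the libraries of the lines did not overlap. Each line was scaled in its own fit, so the size of this ratio depends on the scaling. Scaled to the total of all miRNA counts, the means were 27.9 and 611. Differences on a shared scale come from the fit of both lines, given below. In these bulk samples, fewer cells that express a miRNA and less of it per cell cannot be told apart.

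Within K562 the summed level was lowest in USB1 KO. It was 60.02, 68.2 and 103 CPM in the USB1 KO libraries (77.2 ± 23.1, SD, n = 3), below each control library, and the control mean was 7.38 times the USB1 KO mean. Control shPARN libraries stood at 550, 547 and 386 CPM (494.3 ± 93.9). USB1 KO shPARN libraries stood at 536, 378 and 147 CPM (354 ± 196), each above the USB1 KO libraries, with a ratio of means of 4.58, but they spread widely.

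**Figure D1:**
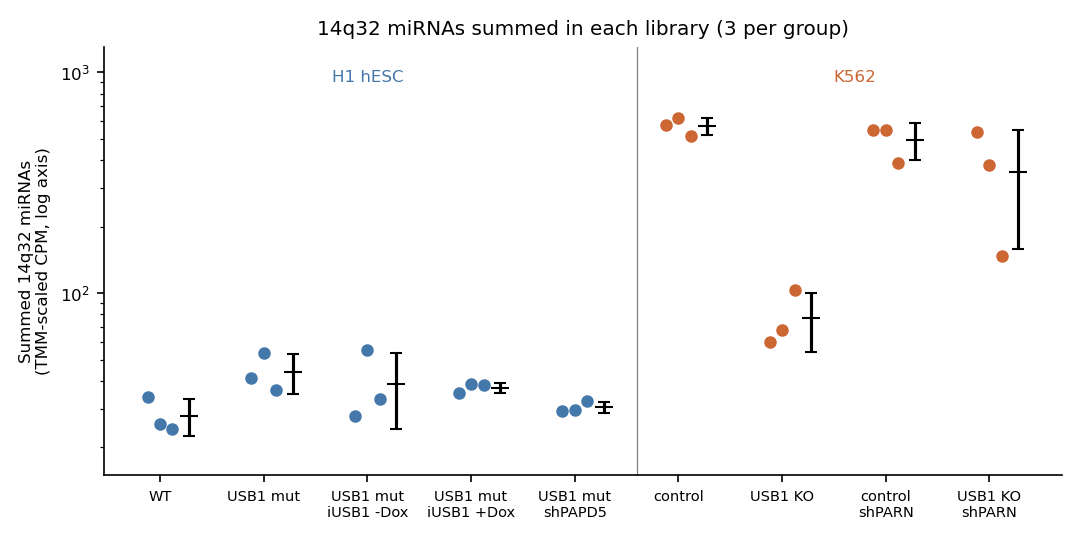
Summed level of the 14q32 miRNAs (TMM-scaled CPM, log axis) in each of 27 libraries, by group; points are libraries and bars the mean and SD of 3. The K562 control libraries sit at 514.7 to 620 CPM, the USB1 KO libraries at 60.02 to 103 and the hESC libraries at 24.1 to 55.4. Each line was scaled in its own fit.

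miR-381-3p, miR-127-3p and miR-370-3p were among the 5 most abundant members in every group. The leading 5 held 79.3% of the cluster's counts in K562 control and 60.2% in WT hESCs. In K562 control these were miR-381-3p, miR-127-3p, miR-493-3p, miR-370-3p and miR-379-5p, with miR-381-3p first. By mean CPM miR-381-3p ranked 355 of 1491 listed miRNAs in USB1 KO and 530 of 1688 in WT hESCs. miR-493-3p ranked 3 within the cluster in each K562 group, with 10.8% of the cluster's counts in control, and had 1.37% in WT hESCs, where miR-654-3p stood among the leading 5 in its place. miR-323a-3p went the other way, with 0.805% in K562 control and 6.79% in WT hESCs.

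The segments did not fall by the same factor in USB1 KO. The upstream segment was 38.4% of the cluster's counts in control (35.4 to 42.0% over libraries) and 55.2% in USB1 KO (51.2 to 58.2%), with no overlap between the libraries. In summed CPM, control exceeded USB1 KO 5.17 times for the upstream segment and 10.03 times for miR-379/miR-656. miR-381-3p fell from 38.2% to 22.2% of the cluster, and miR-127-3p stood at 17.8% and 23.1%. These shares are descriptions with no test.

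**Figure D2:**
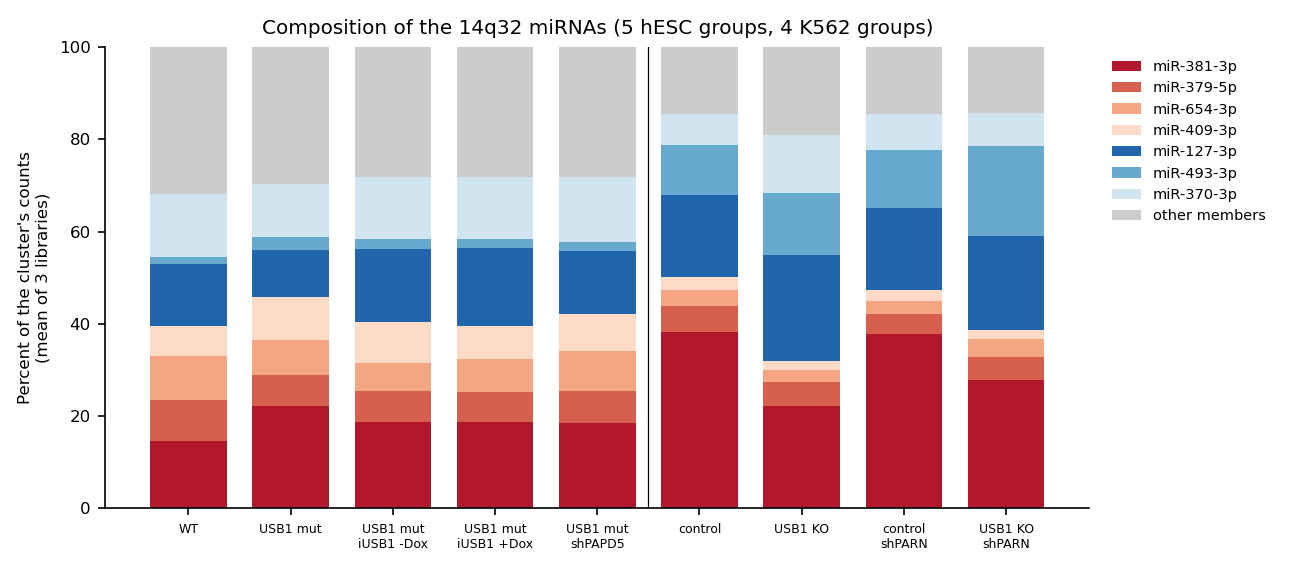
Composition of the 14q32 miRNAs in the 9 groups, as the percent of the cluster's counts (mean of 3 libraries) held by 7 named members and all others. Red shades are members of the miR-379/miR-656 segment and blue shades members of the upstream segment, which held 38.4% in K562 control and 55.2% in USB1 KO.

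Hairpins differed in how evenly their arms were counted. In K562 control 19 hairpins with both arms listed had at least 20 counts, 14 mostly from the 3p arm and 5 mostly from the 5p arm. The 5p arm made up 1.72% of miR-127, 1.27% of miR-370 and 5.84% of miR-654, but 97.8% of miR-379 and 81.6% of miR-411. miR-382 was the most even, with 62.4% from its 5p arm and a range over libraries of 46.7 to 78.0%. The minor arms had few counts. miR-127-5p, for example, had 25, 7 and 18 in control, where miR-127-3p had 1103, 726 and 1029.

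Changes were tested by edgeR's quasi-likelihood test over all miRNAs listed in every table of a line, and a call needed an adjusted p (Benjamini-Hochberg) under 0.05. After the filter on low counts this left 27 members of 881 miRNAs in K562 and 15 of 998 in hESCs, with 13 members tested in both. The other 49 members in K562 and 61 in hESCs were not tested, and 35 of the 76 had fewer than 10 counts in each of the 27 libraries. Of the 27 tested in K562, 18 had under 10 counts in every USB1 KO library. A member that passes the filter through the groups where it is high must differ from a group where it is low, so counts and medians over the tested members are descriptions.

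The comparison of USB1 KO with control asked how these miRNAs differed in leukaemia cells without USB1. Knockout lines were expanded from single cells, so an effect of USB1 loss cannot be told apart from a difference between clones. miR-381-3p, the most abundant member, stood at 213, 261 and 182 CPM in control (219 ± 39.9, SD, n = 3) and at 12.4, 18.2 and 19.9 in USB1 KO (16.9 ± 3.91). Each USB1 KO library lay below each control library, and the log2 fold change was -3.72 (SE 0.41, edgeR adjusted p = 0.000238). miR-654-3p, from the miR-376 group of hairpins, went from 18.9, 21.6 and 16.6 CPM to 1.78, 1.08 and 2.91, a log2 fold change of -3.47 (SE 0.41, edgeR adjusted p = 0.000238). Both members fell by a similar factor although miR-381-3p is far more abundant, and for neither did the groups overlap.

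miR-127-3p, which is fully complementary to RTL1 and is known in mice to direct cleavage of its mRNA, was at 101, 103 and 98.3 CPM in control and 13.7, 17.05 and 22.3 in USB1 KO. The log2 fold change was -2.54 (SE 0.38, edgeR adjusted p = 0.00161). miR-493-3p was at 65.9, 56.8 and 60.7 CPM in control and 9.83, 10.7 and 8.25 in USB1 KO (log2 fold change -2.65, SE 0.41, edgeR adjusted p = 0.00198). For both members each USB1 KO library lay far below each control library.

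miR-379-5p, from the first hairpin of the downstream segment, was at 38.8, 31.5 and 27.1 CPM in control and 3.24, 2.46 and 6.80 in USB1 KO, a log2 fold change of -3.11 (SE 0.41, edgeR adjusted p = 0.000457). miR-370-3p, the last member of the upstream segment, fell less, from 33.2, 39.3 and 43.0 CPM to 6.48, 8.18 and 15.05 (log2 fold change -2.03, SE 0.43, edgeR adjusted p = 0.0171). miR-134-5p, known in neurons for limiting dendritic spine size, was at 8.46, 5.69 and 5.92 CPM in control and 0.836, 0.0985 and 0.971 in USB1 KO, where it rested on 8, 1 and 2 counts (log2 fold change -3.63, SE 0.53, edgeR adjusted p = 0.000763). The 3 members had no overlap between groups, and miR-134-5p was near the limit of detection in USB1 KO.

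Less abundant members fell as well. miR-409-3p stood at 12.7, 16.2 and 19.2 CPM in control and 0.627, 0.788 and 3.88 in USB1 KO, with library 3 well above the others of its group (log2 fold change -3.67, SE 0.77, edgeR adjusted p = 0.0205). miR-758-3p went from 5.15, 4.27 and 2.39 CPM to 0.314, 0.197 and 0, or 3, 2 and 0 counts. It had the largest log2 fold change of the tested members, -4.04 (SE 0.77, edgeR adjusted p = 0.00767). Its 5p arm, which was not listed in control shPARN and so was not tested, did not follow. Over 3 libraries miR-758-5p had 18 counts in control and 18 in USB1 KO, against 111 and 5 for the 3p arm. In USB1 KO library 3 the 5p arm held 100% of the hairpin's counts. miR-494-3p was at 4.32, 4.84 and 5.26 CPM in control and 0.523, 0.493 and 0.971 in USB1 KO (log2 fold change -3.04, SE 0.71, edgeR adjusted p = 0.0231). For all 3 the groups stood apart, but the USB1 KO values rest on 0 to 8 counts.

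Both arms of miR-493 were called. miR-493-5p, the minor arm, went from 5.43, 7.68 and 5.06 CPM to 1.57, 1.08 and 1.46 (log2 fold change -2.15, SE 0.52, edgeR adjusted p = 0.0268), close to the change of its 3p arm. For miR-136, which like miR-127 is antisense to RTL1, the 3p arm went from 2.58, 2.56 and 1.05 CPM to 0.209, 0 and 0.485 (log2 fold change -3.69, SE 0.99, edgeR adjusted p = 0.0484), and its 5p arm was not listed in USB1 KO. The miR-136-3p call was lost whenever any control or USB1 KO library was left out, as was that of miR-494-3p.

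In all, 15 of the 27 tested members were called lower in USB1 KO and 0 higher, where 3.18% of the 881 miRNAs tested were called lower and 1.93% higher. These members were 53.6% of the 28 miRNAs called lower. The fold change was negative for 27 of 27 members, with a median log2 of -2.69 beside -0.02 over all miRNAs tested, and 24 of 27 had every USB1 KO library below every control library, as 15.8% of all tested did. Calls came from both segments, 5 of 10 upstream (median -2.35) and 10 of 17 in miR-379/miR-656 (median -3.04). The called members not yet given were miR-411-5p (-2.61), miR-323a-3p (-2.70) and miR-543 (-2.64), at edgeR adjusted p of 0.0171, 0.021 and 0.021. Of the 15, 6 had under 10 counts in every USB1 KO library. Of the other imprinted miRNA cluster, C19MC on chromosome 19, 0 of 16 tested members were called, with a median log2 of -0.13.

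The 12 members not called were mostly low ones. miR-665 was too rare for a change to be resolved, at 1.10, 1.99 and 0.764 CPM in control and 0.314, 0.887 and 2.91 in USB1 KO. Its log2 fold change was -0.31 (95% interval -1.86 to 1.23, edgeR adjusted p = 0.872). Its groups overlapped, as did those of miR-410-5p (log2 fold change -0.44) and miR-127-5p (-0.82), the minor arm of miR-127. The other 9 had log2 fold changes from -3.58 (miR-431-5p, edgeR adjusted p = 0.0846) to -2.16, with wide errors.

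Leaving out libraries reduced the number of calls but not their direction. Without control library 1, 7 members were called, without USB1 KO library 1, 8, and without USB1 KO library 2, 7, while the median stayed between -3.07 and -2.61 over all alternatives tried. Without control libraries 1 and 2, which held pluripotency miRNAs, a fit with the remaining control library called 4 (miR-381-3p, miR-654-3p, miR-379-5p and miR-134-5p), and the median was -2.63. These were also the 4 members called under every alternative that tested them. The fibroblast markers were at similar levels in control and in USB1 KO libraries 1 and 2. USB1 KO library 3 had 6264 CPM of fibroblast markers other than miR-21 and the lowest depth. It was the highest of its group for 16 of the 27 members, an order not counted over all miRNAs, and without it 13 were called.

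**Figure D3:**
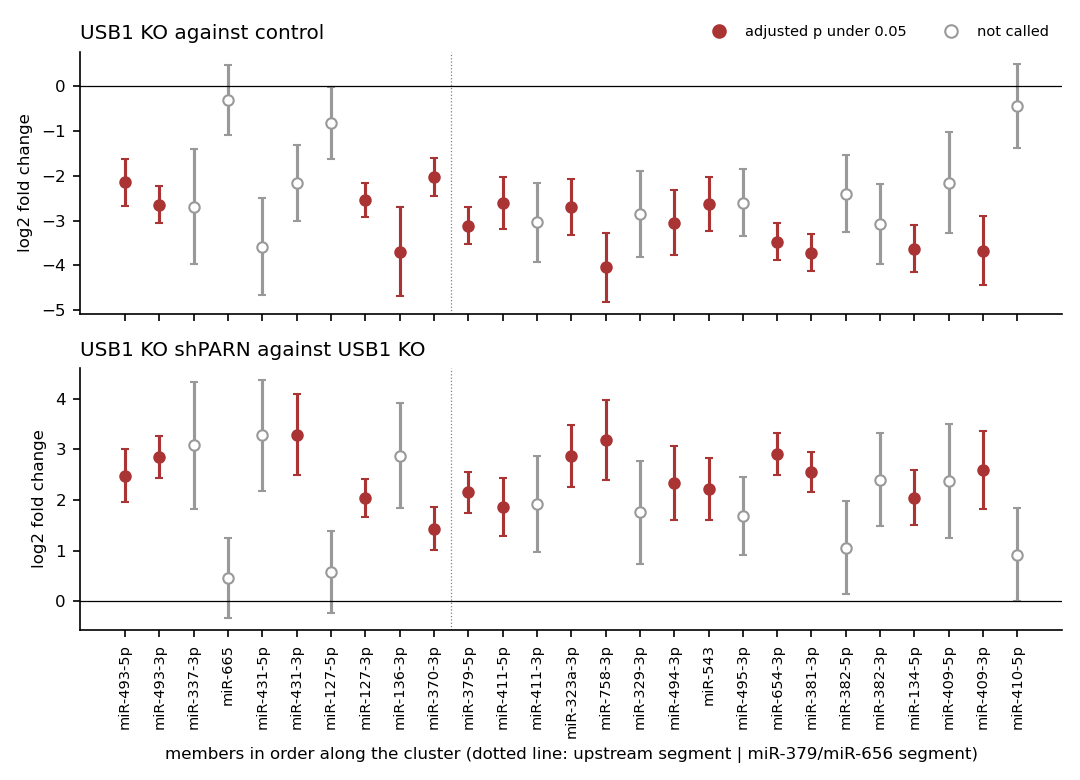
Log2 fold changes of the 27 tested K562 members in their order along the cluster, for USB1 KO against control (upper panel) and USB1 KO shPARN against USB1 KO (lower panel); bars are the SE and filled points have an adjusted p under 0.05. All 27 are negative in the upper panel and positive in the lower, and the comparisons share the USB1 KO libraries.

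Members too rare to test can be followed by their listing. Of the members listed in control, 26 were absent from the USB1 KO table, against 3 listed in USB1 KO but not in control, and 37 were in both. Members were 63 of the 1585 miRNAs listed in control and 40 of the 1491 listed in USB1 KO. How many other miRNAs were in only 1 of the tables was not counted, and listing rests on library 1 alone. Most of the 26 were rare, but miR-889-3p had 26, 27 and 27 counts in the control libraries, miR-323b-3p had 35, 20 and 21, and miR-369-3p had 15, 23 and 20. All 3 had 0 counts in USB1 KO library 1, which allows up to 0.317 CPM, a limit that covers counting error only. The control tables gave them 2.94, 2.69 and 2.19 CPM on average, and their counts in USB1 KO libraries 2 and 3 were unknown and were not analysed here.

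In control cells no member changed at the threshold with the hairpin against PARN. Of the 27 members, 0 were called by edgeR between control shPARN and control, 0 had an unadjusted p under 0.05 and DESeq2 called 0, where 1.25% of the 881 miRNAs were called higher and 0.227% lower. The median log2 fold change was -0.20, beside -0.03 over all miRNAs, and single members ranged from -1.28 (miR-665) to 0.70 (miR-409-5p). miR-381-3p was at 198.7, 221 and 141 CPM with the hairpin, overlapping control, with a log2 fold change of -0.23 (95% interval -0.94 to 0.49). For miR-127-3p the log2 fold change was -0.22 (95% interval -0.91 to 0.47), with 90.1, 96.8 and 73.0 CPM. Changes of the size seen in USB1 KO were outside these intervals.

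In USB1 KO cells the hairpin against PARN went with higher levels. miR-493-3p stood at 118, 62.9 and 29.2 CPM in USB1 KO shPARN, against 9.83, 10.7 and 8.25 in USB1 KO. All 3 libraries were above USB1 KO, but library 3 far less than library 1, and the log2 fold change was 2.85 (SE 0.41, edgeR adjusted p = 0.00199). miR-381-3p stood at 146, 107 and 41.3 CPM against 12.4, 18.2 and 19.9 (log2 fold change 2.56, SE 0.40, edgeR adjusted p = 0.00275). miR-654-3p, at 17.3, 14.9 and 6.44 CPM, had the smallest adjusted p of the 27 members and rose by 2.91 (SE 0.41, edgeR adjusted p = 0.0017).

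miR-127-3p rose to 104, 83.6 and 28.2 CPM (log2 fold change 2.05, SE 0.38, edgeR adjusted p = 0.00506), and miR-379-5p to 24.1, 16.97 and 9.02 (2.15, SE 0.41, edgeR adjusted p = 0.00506). Both groups lay apart from USB1 KO. miR-370-3p, at 34.4, 32.6 and 9.66 CPM, was also called (1.44, SE 0.43, edgeR adjusted p = 0.0444), although its library 3 lay within the USB1 KO range of 6.48 to 15.05. In each of these members library 1 was the highest and library 3 the lowest.

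Of the 27 members, 15 were called higher in USB1 KO shPARN than in USB1 KO and 0 lower, where 9.08% of all miRNAs tested were called higher and 5.68% lower. The median log2 fold change was 2.33, beside 0.11 over all miRNAs, and all 27 were positive. Only 10 of 27 had every library above USB1 KO, beside 17.4% of all tested. The members were 18.8% of the 80 miRNAs called higher. The split of all calls, 80 higher and 50 lower, depended on the scaling and was 30 and 77 with library totals, which moved the median of all miRNAs to -0.14. With library totals 11 members were called higher and 0 lower, with a median of 2.11.

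Among the rarer members, miR-323a-3p reached 7.62, 6.10 and 1.80 CPM against 1.05, 0.591 and 0 in USB1 KO (log2 fold change 2.87, SE 0.61, edgeR adjusted p = 0.00966), and miR-409-3p 10.97, 10.01 and 1.80 (2.59, SE 0.77, edgeR adjusted p = 0.0467). Library 3 of miR-409-3p lay within the USB1 KO range, and that of miR-323a-3p above it. miR-431-3p, from the RTL1-antisense group, stood at 2.08, 1.59 and 0.644 CPM against 0.105, 0.197 and 0 (log2 fold change 3.29, SE 0.80, edgeR adjusted p = 0.0201) and was called here though not between USB1 KO and control. For miR-665, at 0.577, 2.08 and 1.55 CPM, no change was resolved (0.46, 95% interval -1.08 to 2.01).

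The spread within USB1 KO shPARN was wide. Library 1 was the highest for 23 of 27 members and library 3 the lowest for 24 of 27, an order not counted over all miRNAs. Library 1 also held 12886 CPM of fibroblast markers other than miR-21, mostly miR-143-3p, against 1482 and 629 in libraries 2 and 3, and its part in the result was not tested. Without library 1, 7 members were called and the median was 1.63, and without library 2, 7. Without library 3, 20 were called, with a median of 2.68. Leaving out USB1 KO library 1 or 2 left 8 or 5 calls, and a fit of the 2 groups alone tested 16 members and called 4. miR-381-3p, miR-493-3p and miR-654-3p were called under every alternative.

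**Figure D4:**
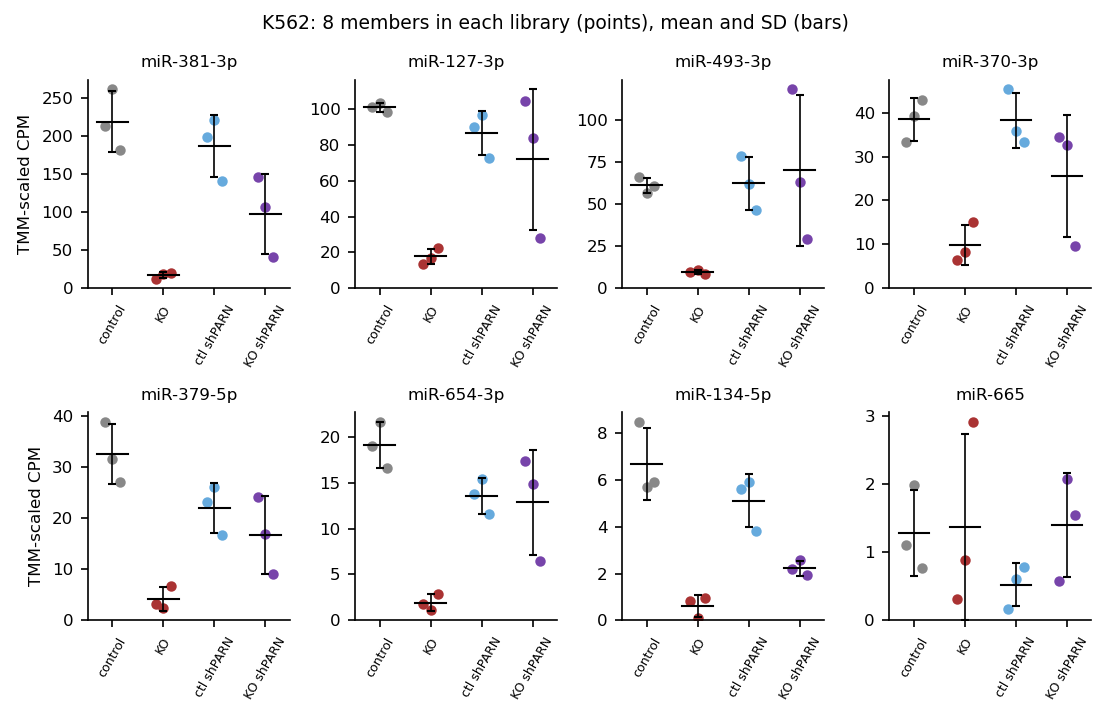
Levels (TMM-scaled CPM) of 8 members in the 12 K562 libraries; points are libraries and bars the mean and SD of 3. For miR-381-3p the USB1 KO libraries sit at 12.4 to 19.9 CPM, below all other groups, while USB1 KO shPARN spans 41.3 to 146.

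Between the groups that both carried shPARN, the cluster did not differ at the threshold. By edgeR 0 of 27 members were called between USB1 KO shPARN and control shPARN and 2 had an unadjusted p under 0.05, where 4.99% of all miRNAs were called higher and 4.2% lower. The median log2 fold change was -0.29 beside 0.02 over all miRNAs, and 22 of 27 were negative. miR-134-5p was lower in each USB1 KO shPARN library, at 2.19, 2.56 and 1.93 CPM against 5.59, 5.92 and 3.81, but its log2 fold change of -1.19 (95% interval -2.01 to -0.37) had an edgeR adjusted p of 0.0907. DESeq2 called that 1 member. For miR-381-3p the log2 fold change was -0.93 (95% interval -1.65 to -0.21, edgeR adjusted p = 0.133), so a fall of up to 1.65 on the log2 scale is within the interval. The median was 0.13 without USB1 KO shPARN library 3 and -0.79 without library 1.

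The effect of shPARN was then compared between USB1 KO and control cells as an interaction. It was called positive for 6 of 27 members and negative for 0, where 1.36% of all miRNAs were called positive and 0.454% negative, with a median log2 difference of 2.44 beside 0.10 over all miRNAs. The difference was 3.40 for miR-654-3p (SE 0.53, edgeR adjusted p = 0.0164), 2.78 for miR-381-3p (SE 0.53), 2.72 for miR-379-5p (SE 0.54) and 2.82 for miR-493-3p (SE 0.55), the last 3 at an edgeR adjusted p of 0.0335. miR-127-3p (2.27) and miR-323a-3p (3.36) were called at an edgeR adjusted p that rounds to 0.05. The calls depended on single libraries. They numbered 0 without control library 1 or 2, USB1 KO library 1 or 2, control shPARN library 1 or 3 or USB1 KO shPARN library 2, and 11 without USB1 KO shPARN library 3, while the median stayed between 2.09 and 2.82.

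By mean level over the 4 K562 groups, USB1 KO was the lowest for 25 of 27 members and control shPARN for 2 (miR-665 and miR-410-5p). Control was the highest for 17, control shPARN for 5 and USB1 KO shPARN for 5. This order was not counted over all miRNAs tested, so it describes the members only. For miR-381-3p the order was control, control shPARN, USB1 KO shPARN and USB1 KO. Its neighbours control and control shPARN overlapped, and control shPARN library 3 (141 CPM) lay below USB1 KO shPARN library 1 (146 CPM). Within the pairs of same-numbered shPARN libraries, however, miR-381-3p was lower in USB1 KO shPARN in 3 of 3, as was the summed level, and the fit with these pairs as a replicate block called 0 members.

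In hESCs the few members that changed moved the other way in the USB1 mutant. The summed level was 41.4, 53.7 and 36.4 CPM in the mutant libraries (43.8 ± 8.90, SD, n = 3), each above the WT libraries, with a ratio of means of 1.57. miR-409-3p, from the far end of the cluster, stood at 1.79, 1.71 and 1.90 CPM in WT and 4.19, 4.06 and 3.598 in the mutant. All mutant libraries lay above WT, and the log2 fold change was 1.14 (SE 0.28, edgeR adjusted p = 0.0204). miR-381-3p stood at 3.09, 4.87 and 3.72 CPM in WT and 10.6, 11.9 and 6.90 in the mutant (log2 fold change 1.34, SE 0.35, edgeR adjusted p = 0.0251). These were the 2 calls among 15 tested members, with 0 lower, where 2.91% of the 998 miRNAs tested were called higher and 4.51% lower. With library totals the split over all miRNAs was 16 higher and 46 lower in place of 29 and 45, and both members were still called.

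Of the other 13 members, 12 had a positive log2 fold change, up to 1.49 for miR-493-3p (SE 0.60, edgeR adjusted p = 0.144), and miR-323a-3p was at -0.29. miR-493-3p was at 0.380, 0.380 and 0.364 CPM in WT and 1.18, 0.813 and 1.27 in the mutant, with no overlap but only 5 to 27 counts a library. It was, with miR-409-3p and miR-381-3p, among the 3 members with all mutant libraries above WT, beside 14.3% of all miRNAs. miR-127-3p (0.28) and miR-134-5p (0.10) overlapped between the groups. The median of the 15 was 0.44, beside 0.04 over all miRNAs. Neither call was stable: 0 members were called without WT library 1, WT library 3 or mutant library 1 or with the 2 groups fitted alone, and 1 was called without WT library 2 or mutant library 2.

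**Figure D5:**
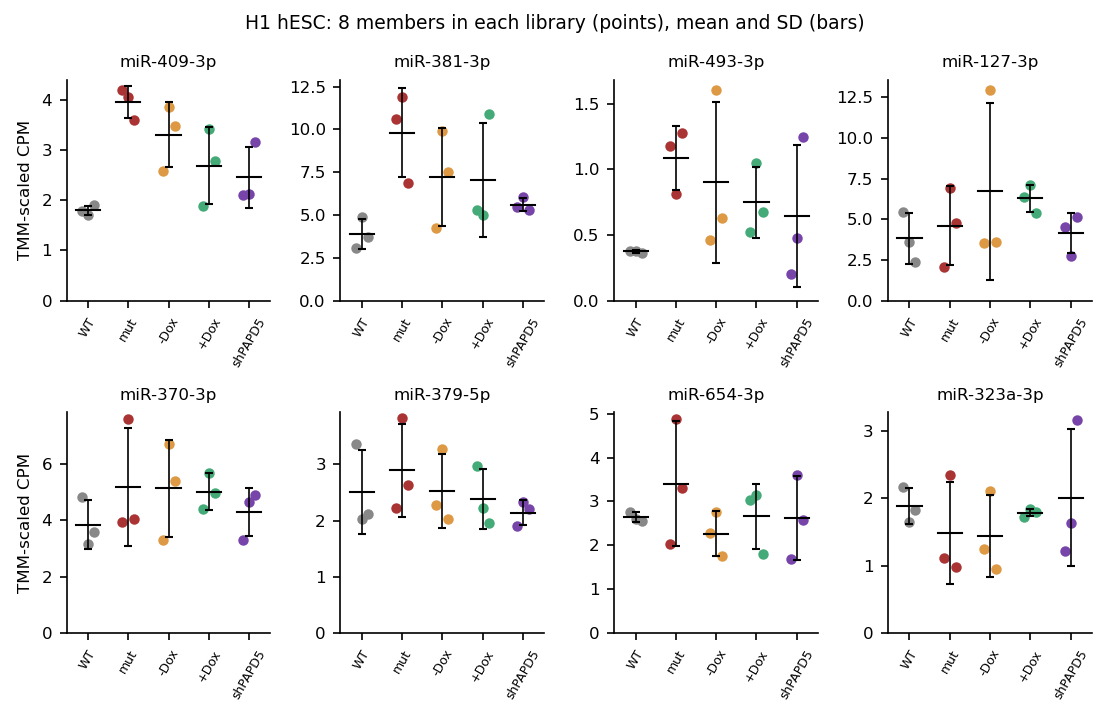
Levels (TMM-scaled CPM) of 8 members in the 15 hESC libraries; points are libraries and bars the mean and SD of 3. For miR-409-3p the mutant libraries (3.598 to 4.19 CPM) sit above WT (1.71 to 1.90), with the Dox and shPAPD5 groups between or overlapping.

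By mean, the other hESC groups lay between WT and the mutant for miR-409-3p and miR-381-3p. miR-409-3p was at 2.59, 3.86 and 3.47 CPM without Dox, 1.88, 3.41 and 2.78 with Dox and 2.10, 2.11 and 3.16 with shPAPD5. miR-381-3p was at 4.24, 9.91 and 7.53, at 5.28, 4.98 and 10.9, and at 5.49, 6.03 and 5.28 CPM in the same groups. The 3 groups overlapped one another for both members. The mutant had the highest mean of the 5 groups for 11 of 15 members and WT the lowest for 7, an order not counted over all miRNAs.

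The other abundant members overlapped across the hESC groups. miR-127-3p was at 5.48, 3.61 and 2.41 CPM in WT and 2.10, 6.92 and 4.798 in the mutant, and reached 13.0 in library 2 without Dox. miR-370-3p ranged from 3.16 to 7.62 CPM over the 15 libraries, and miR-379-5p was at 3.36, 2.03 and 2.11 CPM in WT and 2.23, 3.82 and 2.62 in the mutant (log2 fold change 0.22, 95% interval -0.37 to 0.81). The upstream segment was 31.2% of the cluster's counts in WT, 26.8% in the mutant, 33.2% without Dox, 34.1% with Dox and 31.1% with shPAPD5. The mutant's share ran from 21.4 to 29.7% and overlapped that of WT, 27.8 to 36.5%.

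None of the 6 other hESC comparisons called a member by edgeR. Without Dox against WT the median log2 fold change was 0.41, 2 members had an unadjusted p under 0.05, and the smallest adjusted p was 0.0935 (miR-409-3p, 0.87), where 0.902% of all miRNAs were called higher and 3.41% lower. With Dox against WT the median was 0.37 and 1 member had an unadjusted p under 0.05, where 2.2% were called higher and 6.01% lower. In the comparisons of shPAPD5 with WT (median 0.09), Dox with no Dox (-0.04), no Dox with the mutant (-0.20) and shPAPD5 with the mutant (-0.47), 0% of all miRNAs were called in either direction. Of members, 3 had an unadjusted p under 0.05 in the last and 0 in the 3 before it, and DESeq2 called 0 in all 6.

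For miR-381-3p the change from no Dox to Dox was -0.04 on the log2 scale (95% interval -0.71 to 0.63), and from the mutant to shPAPD5 it was -0.81 (95% interval -1.48 to -0.14, edgeR adjusted p = 0.357). For miR-409-3p these values were -0.30 (95% interval -0.83 to 0.23) and -0.69 (95% interval -1.23 to -0.16, edgeR adjusted p = 0.344). The induction therefore showed no change that the libraries could resolve. Dox was given to the uninduced iUSB1 line, whose means lay below the mutant's for both members and which was not called against WT for either. Whether induction brought these members back to WT levels was not tested. Library 2 without Dox was the highest of its group for 13 of 15 members, an order not counted over all miRNAs.

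Both lines entered 1 fit with 20 members of 857 miRNAs, those listed in all 9 tables. WT hESCs were lower than control K562 for 15 of 20 members and higher for 0, where 31.2% of all miRNAs were called lower and 31.9% higher. The largest difference was that of miR-493-3p, with a log2 fold change of -6.28 (SE 0.53, edgeR adjusted p = 1.57e-10), followed by miR-381-3p at -4.77 (SE 0.43), miR-493-5p at -4.29 (SE 0.72) and miR-127-3p at -3.67 (SE 0.49). miR-323a-3p (-0.25), miR-409-5p (-0.02), miR-410-5p (-0.19), miR-665 (-0.78) and miR-543 (-1.03) were not called. The same 5 were those whose libraries overlapped, and 15 of 20 had every hESC library below K562, beside 35.2% of all miRNAs. The median was -2.26 beside -0.05 over all miRNAs, a reference that moved to 0.17 with DESeq2's size factors and to -0.32 with library totals. C19MC went the other way, with 33 of 33 tested members higher in hESCs (median 6.72). In the hESC libraries this fit kept from 38.6% of counts, since miRNAs not listed in K562 tables were left out.

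The effect of USB1 loss (mutant against WT, knockout against control) was lower in K562 than in hESCs for 10 of 20 members and higher for 0, where 2.8% of all miRNAs differed in that direction and 1.17% in the other. The difference in log2 fold change was -5.005 for miR-381-3p (SE 0.56, edgeR adjusted p = 2.97e-06), -4.81 for miR-409-3p (SE 0.73, 0.000108), -4.09 for miR-493-3p (SE 0.69, 0.000374), -3.83 for miR-654-3p (SE 0.53, 4.35e-05) and -3.70 for miR-134-5p (SE 0.68, 0.000972). The other called members were miR-495-3p, miR-494-3p, miR-379-5p, miR-127-3p and miR-370-3p. miR-665 (0.89) and miR-410-5p (0.24) had positive differences and were not called. 7 of the 10 were called under every alternative that tested them, and those not were miR-127-3p, miR-494-3p and miR-495-3p. The lines differ in the USB1 lesion, a mutation and a knockout, as well as in cell type. Per the study's methods, mutant hESCs were also picked as colonies and knockout K562 cells expanded from single cells. A difference between clones may therefore enter each effect, and these cannot be told apart.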

How the data were processed

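RNA from 27 libraries was isolated with Trizol and made into libraries with a Lexogen small RNA kit. Per the labels and methods, the authors trimmed reads with cutadapt 2.5, aligned them to miRBase with Bowtie2 2.2.9 allowing no mismatch in the seed, and processed alignments with SAMtools 1.3.1. Raw, unscaled counts for each mature arm were deposited, so reads of an edited or mismatched arm may be missed and near-identical arms may share reads. Groups came from the labels, and 0 value columns were left out. Columns of K562 control carry names that the labels also use for hESCs, so these libraries are numbered by column only. Adaptor entries (at most 0.206% of counts) were removed.

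Members and lists were chosen with earlier results of these data known. Members named in the text were those called in any comparison, the 12 most abundant in each line, their other arms and near-identical pairs; others were named where a count of 5 or fewer or the listing turned on them, after their values were seen. Fits in R 4.3.3 used edgeR 4.0.16 (quasi-likelihood, robust, TMM, filterByExpr with minimum count 10 and minimum total 15), 1 fit for each line with all its groups and 1 for both lines, on miRNAs listed in every table: 1251 of 2067 in hESCs and 1080 of 1935 in K562. Benjamini-Hochberg adjustment ran over all miRNAs of a comparison, and 14 comparisons were made. SE came from the F statistic, and 95% intervals are normal. The script was tested on simulated data. Alternatives were DESeq2 1.42.0, other scalings and filters, unlisted entries as 0, the compared groups alone, a replicate block and leaving out each library. Omitting K562 control libraries 1 and 2 was added after seeing the data, and assumes that the lone control varies like other groups. Same-numbered libraries of control shPARN and USB1 KO shPARN deviated together (correlations 0.164 to 0.344), so these numbers were taken as pairs; other groups did not meet this. Total counts set the precision: a count of 0 in USB1 KO library 1 allows up to 0.317 CPM.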

Additional observations from a re-analysis of the deposited data

Results flagged for a closer look

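The effect of shPARN differed between USB1 KO and control K562 cells by a test of the difference itself (edgeR, adjusted p under 0.05) for 6 members. The log2 differences were 3.40 for miR-654-3p, 3.36 for miR-323a-3p, 2.82 for miR-493-3p, 2.78 for miR-381-3p, 2.72 for miR-379-5p and 2.27 for miR-127-3p. Leaving out single libraries gave 0 to 11 calls, so none of these 6 differences held under all omissions.

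The effect of USB1 loss differed between K562 and hESCs by the same kind of test for 10 members, with K562 the lower in each. The log2 differences were -5.005 for miR-381-3p, -4.81 for miR-409-3p, -4.09 for miR-493-3p, -3.99 for miR-495-3p, -3.83 for miR-654-3p, -3.70 for miR-134-5p, -3.44 for miR-494-3p, -3.30 for miR-379-5p, -2.76 for miR-127-3p and -2.42 for miR-370-3p. Leaving out single libraries gave 8 to 11 calls, and 7 were called without control libraries 1 and 2.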

How the results depend on the processing

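Of 947 log2 changes recomputed for 63 calls (a member in a comparison), 731 stayed past the threshold, 216 did not and 0 changed sign. With a minimum of 10 CPM in 3 libraries, fewer members were tested. Calls were then 1 for mutant against WT, 7 for USB1 KO against control, 7 for USB1 KO shPARN against USB1 KO, 1 for the interaction and 7 for WT hESCs against control K562. Outside the interaction, no called member that this filter still tested lost its call, so the lower counts reflect members left untested. In the interaction miR-127-3p, miR-379-5p, miR-381-3p and miR-493-3p were tested and lost theirs. With the compared groups alone, calls were 0 for mutant against WT and 4 for USB1 KO shPARN against USB1 KO. With unlisted entries as 0, more members were tested, and calls were 1 for no Dox against WT (miR-382-3p), 29 between WT hESCs and control K562 and 18 for the difference between lines. DESeq2 called 1 between the shPARN groups, and library totals left 3 for the interaction. Without control libraries 1 and 2, 4 were called for USB1 KO against control and 0 for the interaction. The causes were not tested.

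Leaving out 1 library at a time gave 0 to 2 calls for mutant against WT, 7 to 13 for USB1 KO against control, 5 to 20 for USB1 KO shPARN against USB1 KO, 0 to 11 for the interaction, 14 to 16 between WT hESCs and control K562, 8 to 11 for the difference between lines and 0 elsewhere. Summed levels then ranged over 24.9 to 29.7 CPM in WT, 38.9 to 47.5 in the mutant, 30.5 to 44.3 without Dox, 36.6 to 38.4 with Dox, 29.4 to 31.03 with shPAPD5, 545 to 597 in control, 64.1 to 85.8 in USB1 KO, 466 to 548 in control shPARN and 263 to 457 in USB1 KO shPARN. Without the most abundant member they were 34.0 in the mutant, 30.3 with Dox, 24.8 with shPAPD5, 351 in control and 307 in control shPARN.

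With a replicate block, calls were 2 for mutant against WT, 10 for USB1 KO shPARN against USB1 KO and 0 elsewhere, including the paired shPARN groups, so the block changed no other call count. Same-numbered libraries correlated at -0.182 to 0.348 in hESCs and -0.0362 to 0.344 in K562. No paired analysis was possible because K562 control columns carry no replicate number of their own, for comparisons with that group, and because numbers do not pair libraries across lines. Low counts limit the hESC values and the minor arms.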
